A study of Mus musculus with 31 samples.

Results

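Endothelial cells line blood and lymphatic vessels, and 36 genes known to be active in them were examined in melanoma tumors. The genes were chosen by name, each as the entry of the count table with that gene symbol, and all 36 were present among 39179 genes. They fall into 6 roles: junction and surface proteins, receptors with their phosphatase, ligands, transcription factors, leukocyte adhesion molecules, and proteins of specialized vessels.

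RNA was sequenced from 20 whole tumors and 11 cultures of the melanoma line 20967, which arose in C57BL/6 mice that carried Tyr::CreERT2 +/o and 1 LSL-G12D allele of *Nras*. Parental cells or glucocorticoid receptor knockout (GR KO) cells were implanted intradermally into the right flank of wild-type C57BL/6 mice, 10 mice per genotype. In each genotype 5 tumors received a glucocorticoid (GC), clobetasol propionate 0.05% ointment applied topically 3 times weekly, and 5 received cetraben cream as control. The cultures were parental cells in DMSO (3) or GC (2) and GR KO cells in DMSO (3) or GC (3), kept for 48 hours, with clobetasol propionate given as 10 µM in the treatment labels and as 1 µM in the library names. The labels state neither the age of the mice nor the day of tumor collection. GR KO cells were made by Cas9 editing of *Nr3c1* and grown from single cells, so genotype and clone cannot be told apart. The host's vessels, stroma and leukocytes kept the receptor in all 4 tumor groups.

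Endothelial cells hold vessels together through adherens and tight junctions, answer growth factors of the VEGF, angiopoietin and apelin families, and carry adhesion molecules that let leukocytes leave the blood. Their identity depends on ETS and SOX transcription factors, and capillaries, venules and lymphatics each make proteins of their own. Tumor vessels often differ from resting vessels in these features, and GCs act on endothelial cells as well as on many other cells.

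Library totals ran from 15528066 to 26386770 counts in the 20 tumors and from 14441166 to 22463188 in the 11 cultures. Levels are CPM, counts scaled to library size with TMM factors, and because 3′ tags were counted they were not divided by gene length. A library with 3 counts or fewer of a gene was taken as being at the floor, which lay between 0.114 and 0.193 CPM in tumors and between 0.134 and 0.208 CPM in cultures. SEs and intervals come from the edgeR fits, which include variation between samples. A gene was called in a comparison when its edgeR p-value, adjusted over all genes tested, was under 0.05 and its change was at least 1.5-fold.

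*Nr3c1*, the edited gene, was 33.2, 29.98 and 35.6 CPM in parental cultures with DMSO and 39.5 and 33.4 CPM with GC. GR KO cultures had 24.8, 20.99 and 16.4 CPM with DMSO and 20.9, 22.4 and 13.1 CPM with GC. In tumors 1 to 5 of each group it was 63.4, 57.1, 44.9, 55.6 and 52.2 CPM (parental control), 53.4, 24.4, 48.2, 37.3 and 49.8 CPM (parental GC), 20.7, 27.3, 31.4, 31.8 and 23.5 CPM (GR KO control) and 47.9, 21.7, 58.0, 32.5 and 49.4 CPM (GR KO GC). All GR KO cultures were below all parental cultures, and all GR KO control tumors below all parental control tumors (log2 fold change -1.02, SE 0.24, edgeR adjusted p = 0.0313). The edgeR test did not call the genotype difference in DMSO cultures (-0.67, SE 0.22, adjusted p = 0.0840) or in GC-treated tumors (-0.02, SE 0.24, adjusted p = 0.981). Tags from the 3′ end need not cover the edited bases, so these values do not check the knockout.

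The defining endothelial genes were plain in tumors and low or absent in cultures. *Pecam1*, a junction protein of all endothelium, had a mean of 18.9 CPM in the 20 tumors and 0.190 CPM in the 11 cultures, *Cdh5* (VE-cadherin) 4.75 and 0.212 CPM, and *Kdr*, the main VEGF receptor, 28.5 and 1.964 CPM. In cultures, 11 members had 0 counts in every library (*Cldn5*, *Robo4*, *Tek*, *Aplnr*, *Erg*, *Sox17*, *Sox18*, *Prox1*, *Selp*, *Gpihbp1* and *Lyve1*), and 14 had 3 counts or fewer in every library. In contrast, 9 members were above 3 counts in all 11 cultures: *Kdr*, *Flt1*, *Flt4*, *Eng*, *Ptprb*, *Apln*, *Angpt2*, *Egfl7* and *Vcam1*. For 3 members above the floor the mean was higher in cultures than in tumors, namely *Flt1* (184 against 158 CPM), *Eng* (92.0 against 28.8 CPM) and *Ptprb* (64.3 against 34.1 CPM). The label thus fitted the defining genes, whereas several other members were also transcribed by melanoma cells without endothelium.

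**Figure D1:**
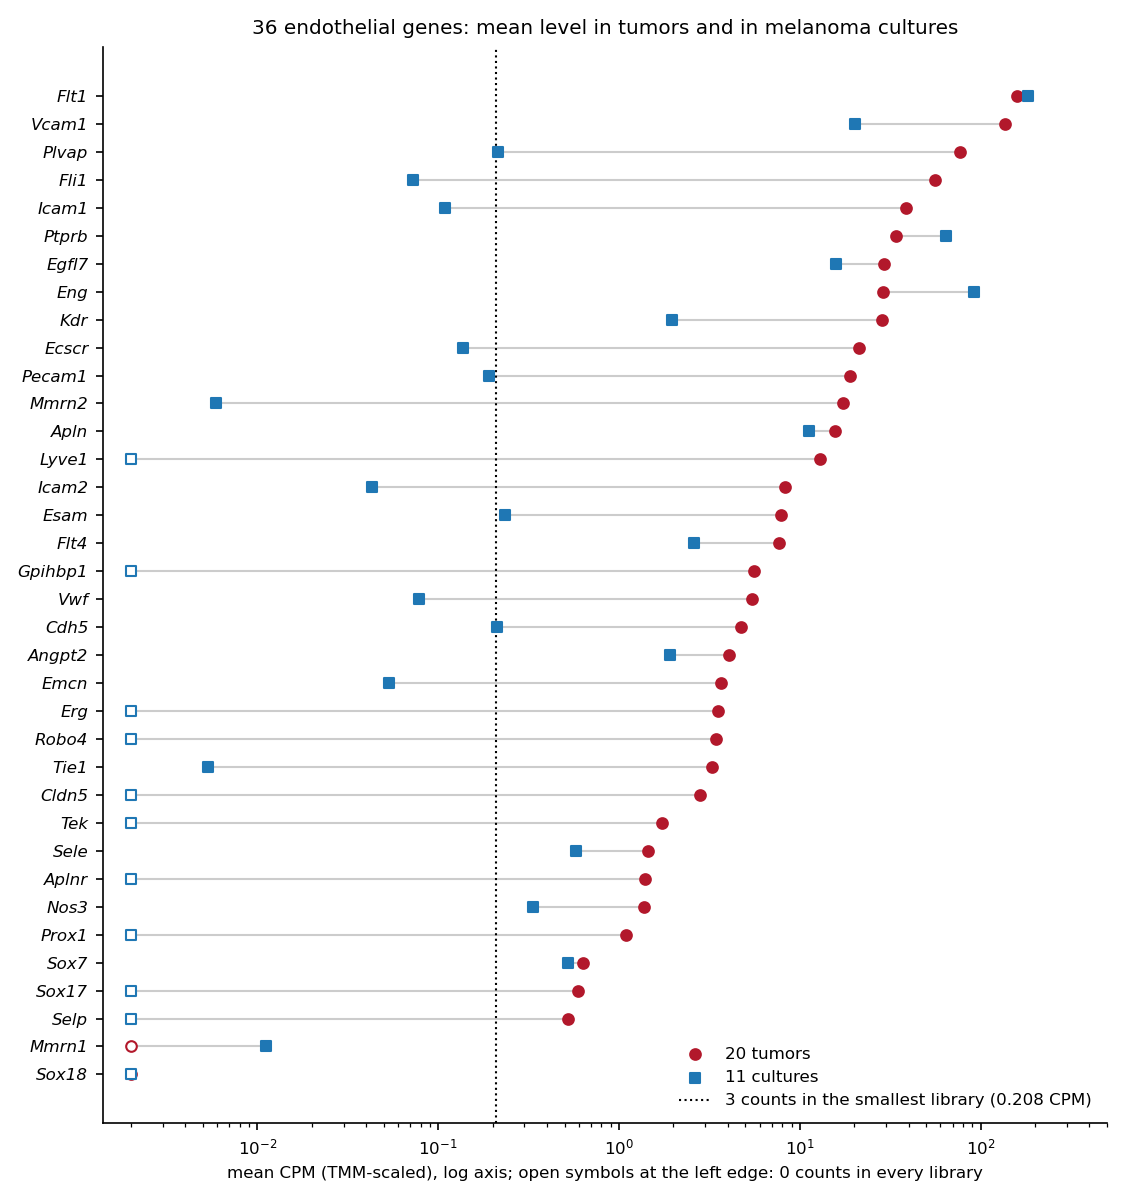
Mean CPM (log axis) of each of the 36 genes in 20 tumors (red circles) and 11 melanoma cultures (blue squares), with open symbols at the left edge for genes with 0 counts in every library and a dotted line at 3 counts in the smallest library (0.208 CPM). *Flt1*, *Eng* and *Ptprb* lie further right in cultures than in tumors, whereas *Pecam1* has 18.9 CPM in tumors and 0.190 CPM in cultures.

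In tumors 34 of the 36 members passed the filter on low counts, and *Sox18* and *Mmrn1* had 0 counts in all 20. In cultures 12 passed. The shares of members called are given below over all 36 and set beside the share of all 15919 (tumors) or 12525 (cultures) genes tested. Because members and lists were chosen with earlier results of these data known, these shares are a description and not a test.

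GC treatment of parental tumors came with more *Vcam1* and less *Plvap* and *Aplnr*. These 3 of 36 members (8.33%) were called, beside 0.779% of all genes, with 1 member higher (0.433% of all genes) and 2 lower (0.345%). The median log2 fold change was -0.52 over the members tested and 0.00 over all genes, with 27 members fitted lower and 7 higher. In GR KO tumors GC treatment came with more *Vcam1* and less *Kdr*, *Egfl7*, *Mmrn2* and *Icam1*. Here 5 of 36 members (13.9%) were called, beside 6.42% of all genes, with 1 member higher (2.71% of all genes) and 4 lower (3.71%). The members' median was -0.59 against 0.05 for all genes, with 25 fitted lower and 9 higher. *Vcam1* was the 1 member called in both genotypes, and 21 were fitted lower in both. In fits that left out 1 tumor, the number of all genes called ran from 60 to 178 in parental tumors (124 with all) and from 303 to 2411 in GR KO tumors (1022 with all), and the highest of these was without GR KO control tumor 4, where 5 members were called.

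The GC effects of the genotypes were compared by an interaction test, as parental minus GR KO, and edgeR called 0 of 36 members, beside 0.195% of all genes (0.126% higher and 0.0691% lower). At an unadjusted p under 0.05 there were 4 members (*Flt1*, *Aplnr*, *Egfl7* and *Gpihbp1*), beside 20.1% of all genes, and DESeq2 called 1, *Gpihbp1*, beside 5.13% of all genes. In fits that left out 1 tumor, the interaction called from 0 to 1284 of all genes (31 with all tumors), the most without GR KO control tumor 4, where *Gpihbp1* was called. So no member's GC effect was shown by edgeR to differ between genotypes, including those called in 1 genotype alone.

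Between genotypes, GR KO control tumors had more *Kdr*, *Egfl7* and *Gpihbp1* and less *Flt1* than parental control tumors, which makes 4 of 36 members (11.1%) called beside 2.25% of all genes. The members split into 3 higher and 1 lower, and of all genes 1.26% were higher and 0.986% lower. Among GC-treated tumors the GR KO group had more *Ptprb* and *Aplnr*, 2 of 36 members (5.56%) beside 0.634% of all genes (0.195% higher and 0.440% lower). Median log2 fold changes of the members were 0.50 and 0.61, against -0.04 and 0.01 for all genes. Each of these comparisons shares tumors with the GC comparisons, and their values are given side by side. In fits that left out 1 tumor, the control comparison called from 61 to 1762 of all genes (358 with all tumors) and from 1 to 6 members, with 1 member in 7 of the 10 fits and the highest counts without GR KO control tumor 4. The GC-treated comparison called from 40 to 114 of all genes and from 1 to 2 members.

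DESeq2 called more genes. It called 4 members with GC in parental tumors (beside 2.37% of all genes) and 6 in GR KO tumors (11.2%). It called 7 between control tumors (6.31%) and 3 between GC-treated tumors (1.82%).

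**Figure D2:**
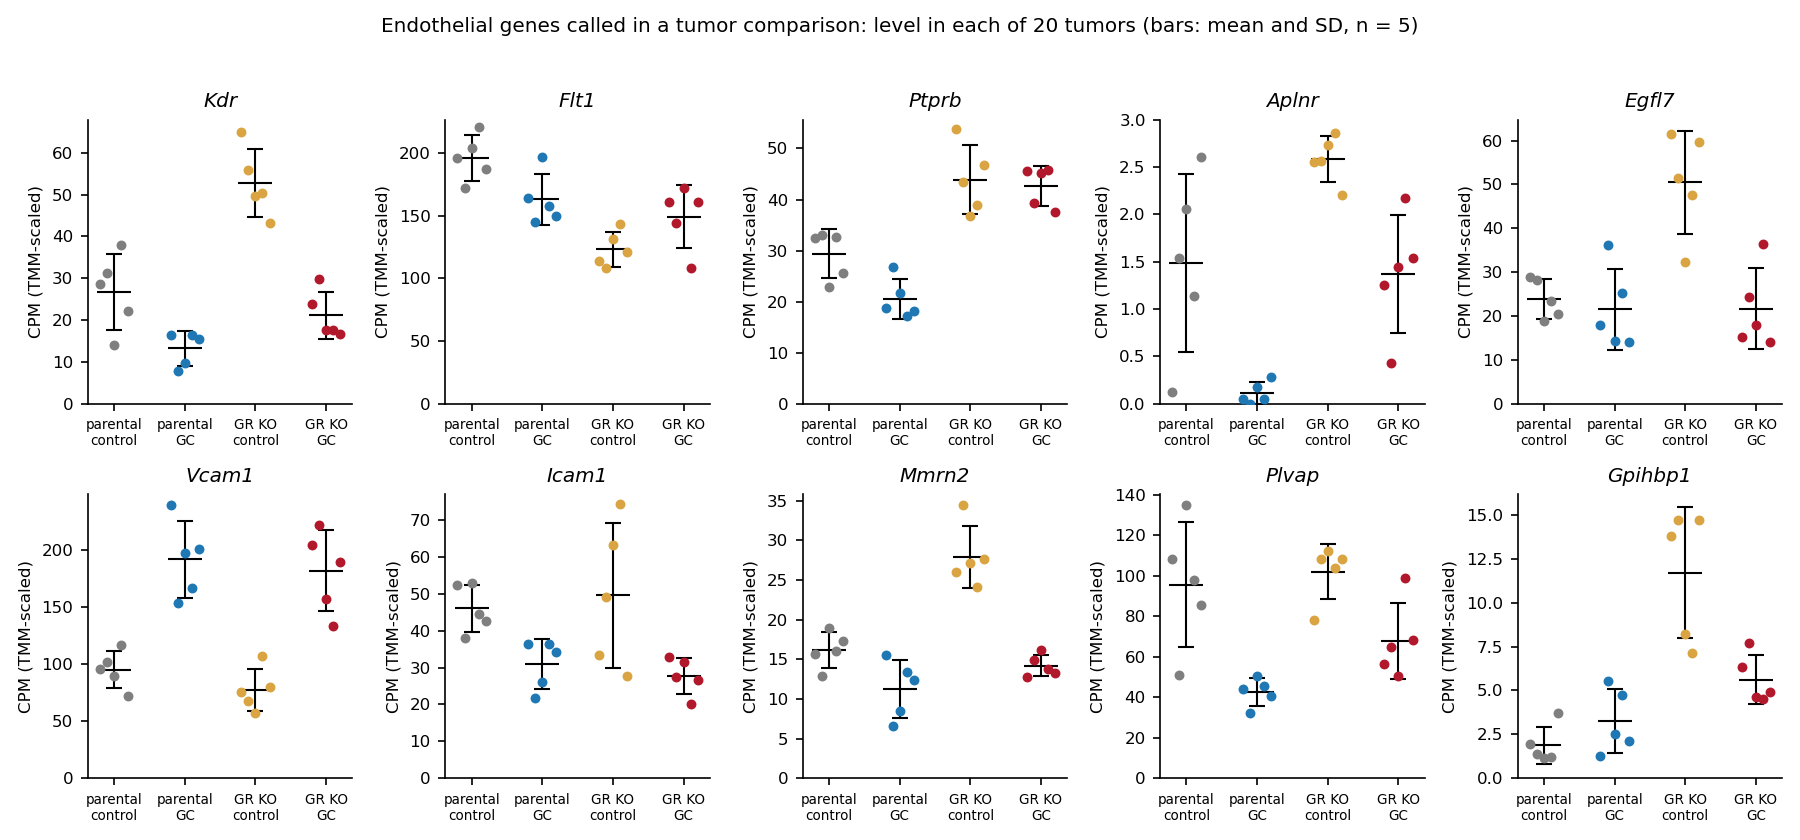
CPM of the 10 members called in at least 1 tumor comparison, with a point for each of 20 tumors in 4 groups and bars for mean and SD (n = 5). *Vcam1* lies between 57.4 and 117 CPM in control tumors and between 134 and 240 CPM in GC-treated tumors.

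Among the 8 junction and surface proteins edgeR called 0 in any tumor comparison. At an unadjusted p under 0.05 there were 2 with GC in each genotype, 0 in the interaction, 5 between control tumors and 2 between GC-treated tumors. Of all 15919 genes 2249 (GC in parental), 3893 (GC in GR KO), 3192, 3180 and 1816 met that threshold. The counts of other lists below compare to these as well. DESeq2 called 1 in each of the last 2 comparisons (*Ecscr* and *Esam*). *Pecam1* was 29.2, 13.1, 18.1, 19.7 and 15.6 CPM in parental control tumors 1 to 5 and 13.6, 6.23, 8.66, 14.92 and 11.3 CPM in parental GC tumors. Levels in GR KO tumors were 16.6, 19.2, 39.1, 36.1 and 26.2 CPM with control and 16.8, 15.3, 18.2, 19.96 and 20.5 CPM with GC. The groups overlapped in both genotypes, and the log2 fold changes with GC were -0.81, SE 0.28 (edgeR adjusted p = 0.190) and -0.60, SE 0.28 (edgeR adjusted p = 0.185). *Cdh5* was 4.58, 5.28, 8.43, 5.90 and 5.22 CPM in parental control tumors and 2.24, 2.67, 3.53, 0.591 and 4.05 CPM with GC. The GR KO tumors held 4.32, 4.36, 7.10, 8.99 and 3.50 CPM with control and 4.41, 4.20, 6.11, 1.59 and 7.81 CPM with GC. Every parental GC tumor was below every parental control tumor, and the GR KO groups overlapped, but *Cdh5* passed the test in neither genotype (log2 fold changes -1.17, SE 0.46, with adjusted p = 0.242 and -0.23, SE 0.45, with edgeR adjusted p = 0.791). Lower RNA of an endothelial gene in a bulk tumor can reflect fewer endothelial cells, less RNA per cell or less from other cell types, which cannot be told apart here. The part of leukocytes and other cells in the level of *Pecam1* was not tested.

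The other junction and surface members are given by group means ± SD (n = 5) in the order parental control, parental GC, GR KO control, GR KO GC. *Esam*, an adhesion molecule at tight junctions, had 6.67 ± 0.956, 4.95 ± 1.18, 8.85 ± 2.76 and 10.9 ± 3.25 CPM. Its difference between the GC-treated genotypes was 1.15 (SE 0.29) on the log2 scale without overlap, was not called by edgeR (adjusted p = 0.0708) and was called by DESeq2 (adjusted p = 0.00753) and by edgeR with a filter of at least 10 counts in every sample (adjusted p = 0.0451). *Cldn5*, which seals tight junctions, had 2.13 ± 0.509, 1.82 ± 0.686, 4.89 ± 2.44 and 2.32 ± 1.16 CPM, and *Icam2*, a ligand of leukocyte integrins, 6.19 ± 0.627, 7.88 ± 3.87, 10.9 ± 2.65 and 8.10 ± 4.77 CPM. *Emcn*, a sialomucin of capillaries and veins, had 2.50 ± 1.64, 2.10 ± 1.07, 5.97 ± 3.44 and 4.11 ± 0.639 CPM, and *Robo4*, a guidance receptor that stabilizes vessels, 2.68 ± 1.20, 1.79 ± 0.447, 5.83 ± 3.60 and 3.45 ± 1.78 CPM. *Ecscr*, a surface protein of endothelial cells, had 15.7 ± 4.63, 17.8 ± 3.88, 26.99 ± 10.1 and 24.2 ± 3.66 CPM, and its genotype difference in control tumors was called by DESeq2 (adjusted p = 0.0434) but not by edgeR.

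Receptors held the largest number of calls. *Kdr* was 28.7, 31.2, 14.04, 37.9 and 22.2 CPM in parental control tumors 1 to 5 and 16.5, 7.90, 9.77, 16.4 and 15.5 CPM in parental GC tumors. For GR KO tumors the values were 65.1, 55.8, 49.7, 50.5 and 43.1 CPM with control and 23.8, 29.9, 17.7, 17.6 and 16.6 CPM with GC. All 5 GR KO control tumors stood above every other tumor in the study, though without TMM factors tumor 5 (35.3 CPM) was below parental control tumor 4 (41.6 CPM). Parental control tumor 3 lay within the range of the GC-treated parental tumors. With GC, *Kdr* fell 2.50-fold in GR KO tumors (log2 fold change -1.32, SE 0.26, edgeR adjusted p = 0.00567). In parental tumors its log2 fold change was -1.02 (SE 0.26) and not called (edgeR adjusted p = 0.0674), although DESeq2 called it (adjusted p = 0.0146), as did edgeR without parental control tumor 3 (adjusted p = 0.0394). The interaction was 0.30 (SE 0.37) with edgeR adjusted p = 0.675. Control tumors of the GR KO line had 1.97-fold more *Kdr* than parental ones (log2 fold change 0.98, SE 0.26, edgeR adjusted p = 0.0472). That call was lost without any 1 of the 5 parental control tumors or of GR KO control tumors 1, 2, 3 and 5 (adjusted p from 0.0572 to 0.133), with no filter on low counts (adjusted p = 0.0540) and in a fit of the compared groups alone (adjusted p = 0.0677), and it was kept without GR KO control tumor 4.

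*Flt1*, a VEGF receptor that also acts as a decoy, was 196, 172, 204, 221 and 187 CPM in parental control tumors and 164, 145, 197, 158 and 150 CPM in parental GC tumors. GR KO tumors had 114, 108, 131, 143 and 121 CPM with control and 161, 144, 172, 108 and 161 CPM with GC. The GR KO control tumors were all below the parental control tumors, and *Flt1* was 1.59-fold lower there (log2 fold change -0.67, SE 0.16, edgeR adjusted p = 0.0309). It was no longer called without any 1 of parental control tumors 1 to 4 or GR KO control tumors 1, 2 and 5 (adjusted p from 0.0503 to 0.0889) or in a fit of the compared groups alone (adjusted p = 0.0694). Melanoma cultures held *Flt1* at a mean of 184 CPM, and the share of its tumor level that came from melanoma cells was not tested.

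*Ptprb*, the phosphatase that acts on VE-cadherin and on the TEK receptor, was 32.5, 33.1, 22.9, 32.7 and 25.6 CPM in parental control tumors and 18.8, 26.7, 21.6, 17.1 and 18.1 CPM in parental GC tumors. Levels in GR KO tumors were 53.8, 43.5, 36.7, 39.0 and 46.8 CPM with control and 45.5, 39.4, 45.1, 45.8 and 37.5 CPM with GC. Every GR KO tumor was above every parental tumor. Without TMM factors, GR KO control tumors 2 and 3 (35.5 and 33.7 CPM) were below parental control tumor 4 (35.9 CPM). Among GC-treated tumors the difference was 2.08-fold (log2 fold change 1.06, SE 0.18, edgeR adjusted p = 0.00479), and among control tumors it was not called (log2 fold change 0.58, SE 0.18, edgeR adjusted p = 0.0818; 0.0246 from DESeq2; 0.0365 without GR KO control tumor 4). The same gene was higher in GR KO cultures, at 78.5, 87.9 and 81.9 CPM with DMSO against 33.4, 36.01 and 38.5 CPM in parental cultures (log2 fold change 1.20, SE 0.13, edgeR adjusted p = 2.52e-04). Thus the genotype difference of *Ptprb* was also present in melanoma cells without vessels.

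*Aplnr*, the apelin receptor of sprouting vessels and veins, was 0.127, 1.54, 2.06, 1.14 and 2.61 CPM in parental control tumors and 0.0510, 0, 0.177, 0.0492 and 0.285 CPM in parental GC tumors. The GR KO tumors held 2.56, 2.57, 2.73, 2.86 and 2.21 CPM with control and 1.25, 0.431, 1.44, 2.17 and 1.54 CPM with GC. Parental GC tumors were near or at the floor, parental control tumor 1 lay among them, and all GR KO tumors were above them. The log2 fold change with GC in parental tumors was -3.67 (SE 0.83, edgeR adjusted p = 0.0326), and it was lost without any 1 of parental control tumors 3, 4 and 5 or GC tumors 1 to 4 (adjusted p from 0.0510 to 0.0962) and in a fit of the compared groups alone (adjusted p = 0.111). In GR KO tumors it was -0.92, SE 0.72 (edgeR adjusted p = 0.454), and the interaction was -2.75, SE 1.06 (edgeR adjusted p = 0.159). GR KO tumors with GC had more *Aplnr* than parental tumors with GC (log2 fold change 3.54, SE 0.82, edgeR adjusted p = 0.0420). That call was lost without any 1 of parental GC tumors 1 to 4 or GR KO GC tumors 1, 3, 4 and 5 (adjusted p from 0.0729 to 0.112), with no filter on low counts (adjusted p = 0.0555) and in a fit of the compared groups alone (adjusted p = 0.107).

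*Tek*, the angiopoietin receptor, was 0.955, 2.25, 0.926, 3.19 and 1.64 CPM in parental control tumors and 0.969, 1.47, 1.24, 3.15 and 0.513 CPM in parental GC tumors. For GR KO tumors the values were 0.733, 4.36, 2.12, 2.66 and 5.16 CPM with control and 0.892, 0, 1.30, 0 and 1.13 CPM with GC. The GR KO groups overlapped, and the log2 fold change of -2.16 (SE 0.88) was not called (edgeR adjusted p = 0.131). Group means of *Tie1*, the partner of TEK, were 3.63 ± 0.936, 1.95 ± 0.926, 4.02 ± 2.30 and 3.49 ± 1.52 CPM in the order used above, and those of *Flt4*, the VEGF-C receptor, 7.89 ± 2.11, 5.15 ± 1.15, 11.04 ± 5.6 and 6.76 ± 2.17 CPM. *Eng*, a co-receptor for TGF-β family ligands, had 23.99 ± 5.71, 25.5 ± 11.1, 30.3 ± 9.28 and 35.7 ± 16.2 CPM. None of *Tie1*, *Flt4* and *Eng* was called in a tumor comparison by edgeR or DESeq2.

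Ligands were represented by *Egfl7*, *Apln* and *Angpt2*. *Egfl7*, a secreted factor that shapes vessel tubes, was 28.8, 28.1, 18.8, 23.4 and 20.4 CPM in parental control tumors and 17.96, 36.1, 14.4, 25.2 and 14.1 CPM in parental GC tumors. GR KO tumors had 61.5, 51.4, 32.2, 47.6 and 59.7 CPM with control and 15.2, 24.4, 17.9, 36.5 and 14.03 CPM with GC. GR KO control tumors were above all parental control tumors (without TMM factors tumor 3 was at 29.6 and parental control tumor 2 at 29.8 CPM), whereas GR KO GC tumor 4 reached above GR KO control tumor 3. With GC, *Egfl7* fell 2.34-fold in GR KO tumors (log2 fold change -1.22, SE 0.29, edgeR adjusted p = 0.0150; 0.0513 without GR KO GC tumor 3). In parental tumors its log2 fold change was -0.15, SE 0.28 (edgeR adjusted p = 0.863), and the interaction was 1.07, SE 0.40 (edgeR adjusted p = 0.151). Among control tumors the GR KO group had 2.11-fold more (log2 fold change 1.08, SE 0.29, edgeR adjusted p = 0.0470), which was lost without any 1 of the 5 parental control tumors or of GR KO control tumors 1, 2 and 5 (adjusted p from 0.0607 to 0.119).

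In cultures the genotype difference of *Egfl7* had the opposite sign, with 10.6, 8.11 and 11.3 CPM in GR KO and 26.1, 23.9 and 22.2 CPM in parental cells with DMSO (log2 fold change -1.26, SE 0.21, edgeR adjusted p = 0.00295). The *Egfl7* locus shares exons with *Gm20532* and *Mir126a* on its strand and with *Agpat2* on the other, and strandedness of the counting is known only as a default, which was not checked, so the assignment of its reads is uncertain. *Apln*, the apelin ligand of tip cells, had group means of 17.2 ± 3.32, 9.63 ± 2.01, 21.8 ± 8.94 and 14.1 ± 2.71 CPM. Its log2 fold changes with GC were -0.83 (SE 0.27) in parental tumors, where the groups did not overlap (edgeR adjusted p = 0.158), and -0.63 (SE 0.26) in GR KO tumors (edgeR adjusted p = 0.143). *Angpt2*, which destabilizes vessels, had 4.53 ± 2.01, 2.66 ± 1.91, 3.83 ± 1.95 and 5.30 ± 2.80 CPM and was not called in tumors.

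Of the 6 transcription factors 0 were called by edgeR or DESeq2 in tumors, with 1 at an unadjusted p under 0.05 for GC in each genotype and 0 in the other tumor comparisons. *Fli1*, an ETS factor that leukocytes also make, had group means of 60.5 ± 7.35, 38.74 ± 13.0, 74.98 ± 19.1 and 50.7 ± 10.3 CPM. Its log2 fold changes with GC were -0.64, SE 0.23 (edgeR adjusted p = 0.196) in parental and -0.56, SE 0.23 (edgeR adjusted p = 0.127) in GR KO tumors. *Erg*, the ETS factor of mature endothelium, had 2.67 ± 1.08, 3.08 ± 1.95, 5.29 ± 6.66 and 3.00 ± 0.576 CPM. *Sox7*, a regulator of vessel development, was 0.764, 0, 1.13, 1.14 and 2.46 CPM in parental control, 0.357, 0.157, 0.840, 0.542 and 0 CPM in parental GC, 0, 0.0597, 0.478, 1.20 and 0.246 CPM in GR KO control and 1.16, 0.485, 1.26, 0.212 and 0.182 CPM in GR KO GC tumors. Its groups overlapped throughout, with a log2 fold change of -1.51 (SE 1.18) with GC in parental tumors (edgeR adjusted p = 0.599).

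*Sox17*, a factor of arterial endothelium, was 0.509, 0.240, 0.926, 0.649 and 1.86 CPM in parental control, 0.459, 0.0523, 0.0884, 0 and 0.912 CPM in parental GC, 0, 0.0597, 0.615, 0.888 and 0 CPM in GR KO control and 1.52, 0.108, 0.764, 0.847 and 1.36 CPM in GR KO GC tumors. The fitted GC effects pointed in opposite directions in the genotypes, with overlapping groups and an interaction of -2.98 (SE 1.70) that was not called (edgeR adjusted p = 0.323). *Prox1*, which sets lymphatic identity, was 2.36, 1.92, 0.617, 1.62 and 2.01 CPM in parental control, 1.38, 1.10, 1.55, 1.92 and 0.684 CPM in parental GC, 0, 2.03, 0.0683, 0.695 and 1.60 CPM in GR KO control and 0.802, 0.269, 0.944, 0.159 and 0.0454 CPM in GR KO GC tumors. Its groups overlapped, and the genotype difference among GC-treated tumors was -1.56, SE 0.93 (edgeR adjusted p = 0.533). With 7 tumors at the floor for *Sox17*, 5 for *Sox7* and 4 for *Prox1*, differences in these genes were barely measurable at this depth.

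The leukocyte adhesion molecules held the only member that edgeR called higher with GC. *Vcam1*, the integrin ligand that captures lymphocytes and monocytes and that stromal cells and macrophages can also make, was 95.5, 102, 89.9, 117 and 72.5 CPM in parental control tumors and 240, 154, 198, 167 and 201 CPM in parental GC tumors. Levels in GR KO tumors were 75.8, 67.8, 57.4, 107 and 80.1 CPM with control and 205, 222, 157, 134 and 190 CPM with GC. All 10 GC-treated tumors stood above all control tumors. *Vcam1* rose 2.02-fold in parental tumors (log2 fold change 1.01, SE 0.19, edgeR adjusted p = 0.00957) and 2.34-fold in GR KO tumors (log2 fold change 1.23, SE 0.20, edgeR adjusted p = 0.00142). The interaction was -0.21, SE 0.27 (edgeR adjusted p = 0.694), with a 95% interval from -0.75 to 0.32. Cultures did not show the rise, with 28.0 and 29.7 CPM in parental cells with GC against 35.6, 30.5 and 39.5 CPM with DMSO (log2 fold change -0.29, SE 0.23, edgeR adjusted p = 0.712). In GR KO cultures *Vcam1* was 10.4, 8.51 and 8.52 CPM with GC and 9.35, 7.35 and 13.3 CPM with DMSO (log2 fold change -0.13, SE 0.21, edgeR adjusted p = 0.976).

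*Icam1*, an integrin ligand of endothelium, epithelium and leukocytes, was 52.4, 37.99, 52.8, 44.5 and 42.5 CPM in parental control tumors and 36.4, 21.7, 26.2, 36.4 and 34.3 CPM in parental GC tumors. The GR KO tumors held 33.3, 49.0, 63.3, 74.2 and 27.6 CPM with control and 32.8, 27.5, 31.5, 20.2 and 26.7 CPM with GC. The GR KO groups overlapped through control tumor 5, and the parental groups did not overlap with TMM factors but did without them (GC tumor 1 at 40.4 and control tumor 2 at 40.3 CPM). *Icam1* fell 1.78-fold with GC in GR KO tumors (log2 fold change -0.84, SE 0.24, edgeR adjusted p = 0.0373), whereas the parental log2 fold change of -0.57 (SE 0.24) was not called (edgeR adjusted p = 0.277) and the interaction was 0.26, SE 0.34 (edgeR adjusted p = 0.691). The GR KO call was lost without any 1 of GR KO control tumors 2, 3 and 4 or of the 5 GR KO GC tumors (adjusted p from 0.0550 to 0.0917), with replicate number as a block (adjusted p = 0.0545) and in a fit of the compared groups alone (adjusted p = 0.100).

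The selectins, on which leukocytes roll, were low. *Sele* was 0, 2.25, 0.360, 1.03 and 0.373 CPM in parental control, 0.357, 2.51, 0.177, 0 and 0.855 CPM in parental GC, 4.54, 2.15, 1.91, 1.89 and 4.24 CPM in GR KO control and 0.535, 0.808, 1.84, 2.28 and 0.953 CPM in GR KO GC tumors. GR KO control tumors were mostly higher than parental ones but overlapped with parental control tumor 2 (log2 fold change 1.86, SE 0.96, edgeR adjusted p = 0.282). *Selp* was 0.637, 0.528, 0.514, 1.62 and 0.708 CPM in parental control, 0.153, 0.262, 0.177, 0.394 and 0.228 CPM in parental GC, 0, 0.418, 0.478, 0.811 and 0.799 CPM in GR KO control and 0.401, 0.0539, 0.989, 0.371 and 0.953 CPM in GR KO GC tumors. Every parental GC tumor was below every parental control tumor, at levels near the floor, and the difference was not called (log2 fold change -1.70, SE 0.96, edgeR adjusted p = 0.435).

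Proteins of specialized vessels included the other member that fell with GC in parental tumors. *Plvap*, which forms the diaphragms of fenestrated capillaries, was 108, 51.0, 135, 97.8 and 85.3 CPM in parental control tumors and 43.9, 32.0, 50.4, 45.4 and 40.8 CPM in parental GC tumors. For GR KO tumors the values were 78.0, 108, 112, 104 and 108 CPM with control and 56.3, 64.8, 50.6, 98.7 and 68.3 CPM with GC. The parental groups did not overlap, though control tumor 2 was only just above the highest GC tumor and, without TMM factors, below it (54.1 and 55.4 CPM), and GR KO GC tumor 4 lay within the GR KO control range. *Plvap* fell 2.25-fold with GC in parental tumors (log2 fold change -1.17, SE 0.22, edgeR adjusted p = 0.00957). Its log2 fold change of -0.59 (SE 0.22) in GR KO tumors was not called (edgeR adjusted p = 0.105), and the interaction was -0.58, SE 0.31 (edgeR adjusted p = 0.299).

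*Mmrn2*, an extracellular matrix protein of vessels, was 15.7, 12.9, 18.9, 16.1 and 17.3 CPM in parental control tumors and 15.5, 6.59, 8.48, 13.4 and 12.4 CPM in parental GC tumors. GR KO tumors had 26.01, 34.4, 27.1, 24.1 and 27.7 CPM with control and 12.8, 14.87, 16.2, 13.8 and 13.3 CPM with GC. The GR KO control tumors were above all other tumors. Without TMM factors, however, tumor 1 (19.6 CPM) was below parental control tumor 3 (20.7 CPM). *Mmrn2* fell 1.96-fold with GC in GR KO tumors (log2 fold change -0.97, SE 0.22, edgeR adjusted p = 0.0143), and in parental tumors the log2 fold change of -0.52 (SE 0.22) was not called (edgeR adjusted p = 0.292; interaction 0.45, SE 0.32, adjusted p = 0.432). Its genotype difference in control tumors was not called (log2 fold change 0.78, SE 0.22, edgeR adjusted p = 0.0641), but DESeq2 called it (adjusted p = 0.0127), as did edgeR without GR KO control tumor 4 (adjusted p = 0.0299).

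*Gpihbp1*, which carries lipoprotein lipase across capillary endothelium, was 1.97, 1.39, 1.13, 1.19 and 3.69 CPM in parental control tumors and 1.28, 5.55, 2.52, 4.73 and 2.11 CPM in parental GC tumors. Levels in GR KO tumors were 13.8, 14.7, 8.197, 7.14 and 14.7 CPM with control and 6.33, 7.71, 4.63, 4.50 and 4.90 CPM with GC. GR KO control tumors stood above all parental tumors, and *Gpihbp1* was 6.20-fold higher there than in parental control tumors (log2 fold change 2.63, SE 0.44, edgeR adjusted p = 0.00379). All cultures had 0 counts of it. With GC the log2 fold change in GR KO tumors was -1.06, SE 0.41 (edgeR adjusted p = 0.116; 0.0498 from DESeq2). The interaction of 1.84 (SE 0.59) was not called by edgeR (adjusted p = 0.114) but was by DESeq2 (adjusted p = 0.0319) and by edgeR without GR KO control tumor 4 (adjusted p = 0.0441).

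Group means of *Vwf*, the clotting protein stored by endothelium, were 4.23 ± 2.29, 3.97 ± 1.76, 9.23 ± 4.48 and 4.47 ± 1.10 CPM, and those of *Nos3*, which makes nitric oxide, 1.36 ± 0.505, 0.602 ± 0.375, 2.40 ± 1.77 and 1.14 ± 0.998 CPM. *Lyve1*, a hyaluronan receptor of lymphatics and some macrophages, had 9.36 ± 5.37, 20 ± 11, 6.74 ± 6.31 and 15.7 ± 6.77 CPM, with log2 fold changes with GC of 1.10, SE 0.49 (edgeR adjusted p = 0.315) and 1.21, SE 0.50 (edgeR adjusted p = 0.134). *Sox18* and the lymphatic and platelet protein gene *Mmrn1* were at 0 in all tumors. Within the GC-treated groups, tumors 2 and 4 of each genotype had the highest *Egfl7* and the lowest *Lyve1* of their group, with *Lyve1* at 10.4 and 9.95 CPM in parental and 9.48 and 7.57 CPM in GR KO tumors against 17.9 CPM or more in the others. These 4 libraries, noted after their values were seen, stood apart more widely. They had the highest *Icam2* (9.47 and 13.9 CPM in parental, 8.84 and 15.8 CPM in GR KO) and *Eng* of their groups, the lowest *Nr3c1* (24.4 and 37.3 CPM, 21.7 and 32.5 CPM), the lowest sums of fibroblast genes given below and the lowest TMM factors (0.914 and 0.938, 0.998 and 0.975). The part of this difference in the members' levels was not tested. Among GR KO control tumors TMM factors were 0.753, 0.816, 0.919, 1.10 and 0.819, and 4 of these 5 raise CPM.

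**Figure D3:**
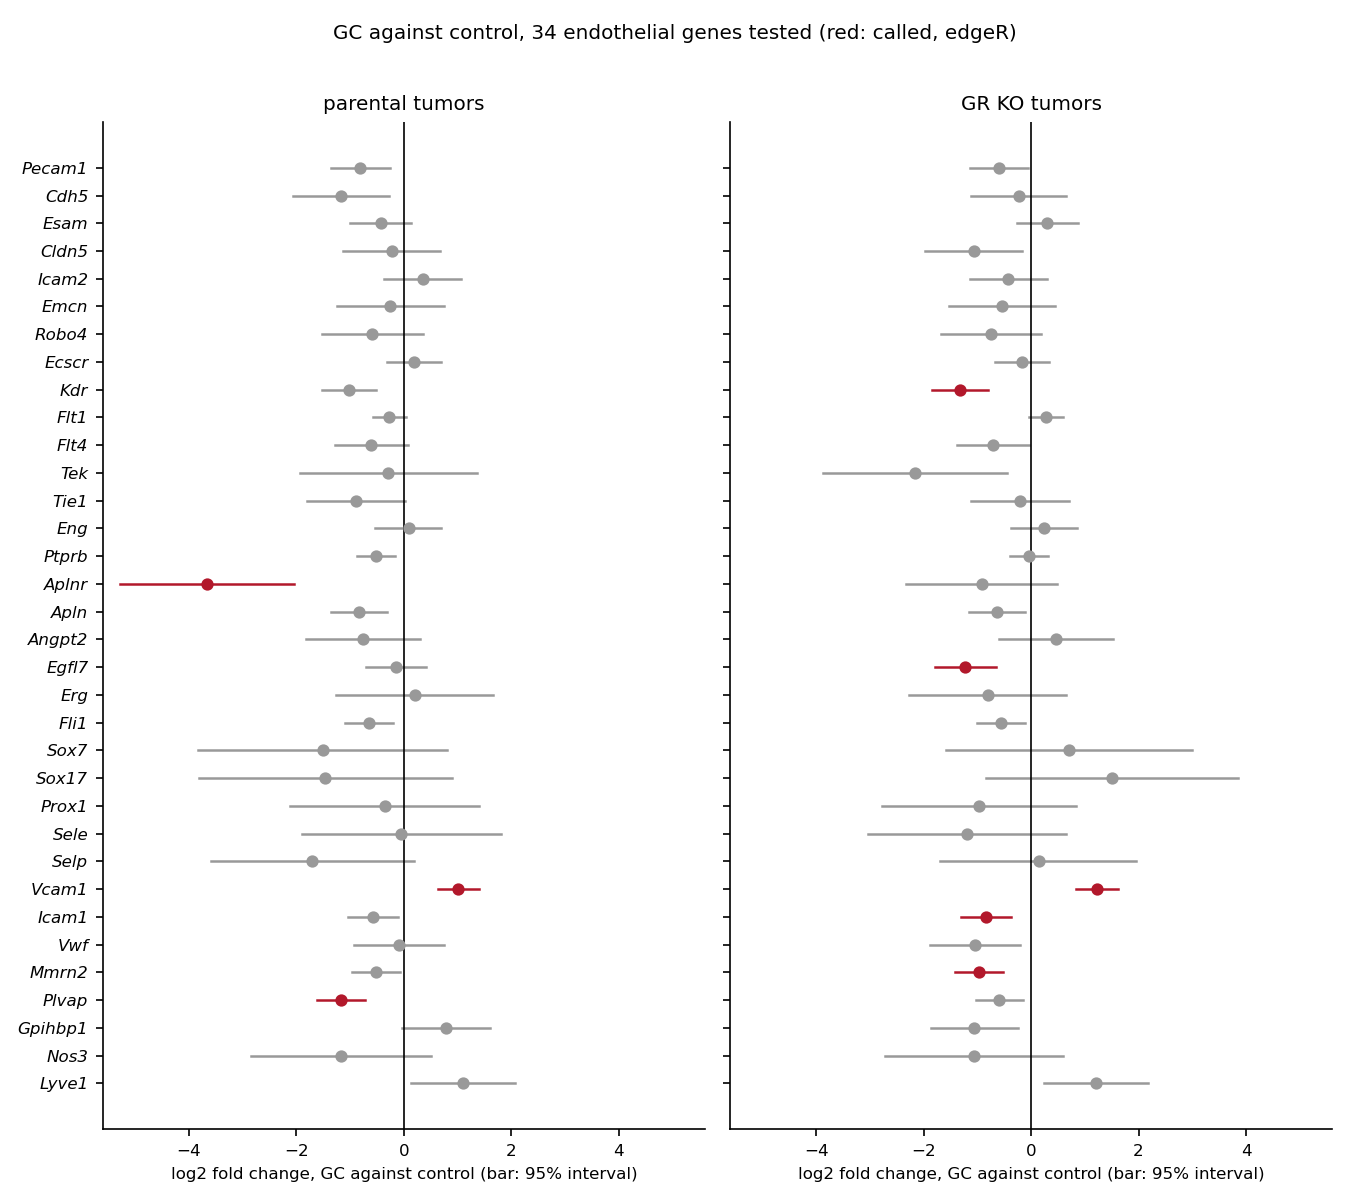
Log2 fold change of GC-treated against control tumors with its 95% interval for the 34 members tested, in parental (left) and GR KO (right) tumors, with called genes in red. Fitted values are below 0 for 27 members in parental and 25 in GR KO tumors, and *Vcam1* is above 0 and called in both.

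The defining endothelial genes *Pecam1*, *Cdh5*, *Kdr*, *Tie1*, *Tek* and *Esam* summed to 74.6, 60.2, 50.7, 78.4 and 55.9 CPM in parental control tumors and 41.3, 22.7, 31.5, 41.3 and 39.0 CPM in parental GC tumors. The sums in GR KO tumors were 100, 94.0, 109, 117 and 88.9 CPM with control and 62.9, 67.0, 58.9, 50.4 and 56.8 CPM with GC. Within each genotype the sums of GC-treated tumors were all below those of control tumors, and GR KO control tumors were the highest group. Scaled to library totals without TMM factors, the sums were 75.4, 76.7, 100, 129 and 72.8 CPM in GR KO control and 75.4, 63.9, 55.5, 85.9 and 56.8 CPM in parental control tumors, so these groups then overlapped. The GC-treated tumors still lay below the controls of their genotype. *Kdr* was the most abundant of the 6 genes and contributed 51.9% of the sum in GR KO control and 35.7% in GR KO GC tumors. Without *Kdr* the sums of GR KO control tumors overlapped those of GR KO GC and of parental control tumors, whereas the parental groups stayed separate. With GC, edgeR called *Kdr* alone of the 6 genes in GR KO tumors (5 fitted lower) and 0 in parental tumors (6 fitted lower). Cultures had sums between 1.01 and 4.62 CPM.

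Because bulk levels mix cell numbers with RNA per cell, members were also set against *Pecam1* plus *Cdh5* of the same tumor, as a description without a test. The part of cells other than endothelium in *Pecam1* plus *Cdh5* was not tested. The ratio for *Vcam1* was 3.96 ± 1.09 (SD, n = 5) in parental control and 14.5 ± 2.60 in parental GC tumors, and 2.56 ± 0.867 in GR KO control and 8.10 ± 2.32 in GR KO GC tumors. These ratios did not overlap in either genotype. The sum of *Pecam1* and *Cdh5* was itself 25.0 ± 5.96 CPM in parental control, 13.5 ± 2.98 in parental GC, 33.1 ± 11.9 in GR KO control and 23.0 ± 3.47 in GR KO GC tumors, so a gene that stays level gains on this ratio. In parental tumors the ratios of 5 of 36 members were higher in all GC-treated than in all control tumors, beside 21.5% of all genes tested: *Vcam1*, *Flt1* (8.10 ± 1.42 in control and 12.6 ± 3.36 with GC), *Icam1* (1.88 ± 0.226 and 2.29 ± 0.108), *Ecscr* (0.643 ± 0.177 and 1.35 ± 0.312) and *Icam2*, and in GR KO tumors that of *Vcam1* alone, beside 10.9% of all genes. The ratios of 0 of 36 members were lower in all GC-treated tumors in either genotype, beside 0.0565% (parental) and 0.113% (GR KO) of all genes. Separation upward on this ratio was thus no more frequent among members than among all genes. The ratio for *Plvap* ran from 2.78 to 5.09 in parental control and from 2.66 to 4.13 in parental GC tumors, which overlapped. For *Kdr* it was 1.82 ± 0.885 in GR KO control and 0.958 ± 0.379 in GR KO GC tumors, and for *Mmrn2* 0.950 ± 0.403 and 0.629 ± 0.106, again with overlap. Ratios overlapped as well for *Aplnr* in parental tumors (0.0669 ± 0.0456 in control and 0.00790 ± 0.00813 with GC) and in GR KO tumors for *Egfl7* (1.77 ± 0.901 and 0.979 ± 0.487) and *Icam1* (1.52 ± 0.419 and 1.23 ± 0.277). Whether these genes fell beyond the junction genes was not tested.

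In cultures edgeR called 0 of the 12 members tested for GC against DMSO in parental cells, beside 0.878% of all genes. There 3 of the 12 had an unadjusted p under 0.05 (*Kdr*, *Sele* and *Plvap*), beside 8.48% of all genes, and DESeq2 called 0, beside 2.00% of all genes. Mean *Kdr* was 3.80 CPM with GC and 1.17 CPM with DMSO, *Plvap* 0.466 and 0 CPM, and *Sele* 0.0571 and 0.650 CPM, so *Kdr* and *Plvap* were fitted higher here and lower in tumors. In GR KO cells edgeR called 0 members, beside 0% of all genes, and DESeq2 called 0 (0% of all genes). At an unadjusted p under 0.05 there were 2 of the 12 members tested (*Flt4* and *Eng*), beside 1.89% of all genes. Between GR KO and parental cells in DMSO 4 of the 12 members tested were called (11.1% of all 36), beside 8.22% of all genes. *Ptprb* was higher and *Egfl7*, *Vcam1* and *Flt4* were lower in GR KO cells, and DESeq2 called the same 4 beside 11.4% of all genes. *Vcam1* differed by -1.82 (SE 0.22) on the log2 scale (edgeR adjusted p = 3.90e-04). *Flt4* was 1.25, 0.811 and 0.646 CPM in GR KO and 2.60, 4.37 and 3.88 CPM in parental cultures (3.99-fold lower, edgeR adjusted p = 0.00683).

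Of 36 other endothelial genes 33 were tested. The shares of all genes called in each comparison are those given above for the members. In parental tumors edgeR called 1 with GC, a rise of the scavenger receptor gene *Stab1* (log2 fold change 1.24, SE 0.22, edgeR adjusted p = 0.00487), with 8 at an unadjusted p under 0.05, 22 fitted lower and a median of -0.35 (0.00 over all genes). With GC in GR KO tumors 1 rose, the adrenomedullin and CGRP receptor gene *Calcrl* (1.44, SE 0.28, edgeR adjusted p = 0.00476), with 8 at an unadjusted p under 0.05, 17 fitted lower and a median of -0.05 (0.05 over all genes). In the interaction 21 were fitted lower, with a median of -0.52 (-0.04 over all genes). Among control tumors *Calcrl* was lower in the GR KO group (-1.53, SE 0.28, edgeR adjusted p = 0.00756). There 19 were fitted lower and 14 higher, with a median of -0.17 (-0.04 over all genes), whereas the median of the members was 0.50. In GC-treated tumors 23 were fitted higher in the GR KO group, but by edgeR *Stab1* (-0.94, SE 0.22, adjusted p = 0.0396) and *Ramp2*, the partner of CALCRL (-1.98, SE 0.46, adjusted p = 0.0388), were lower there. The most abundant genes of the list were *Cd34* (234 CPM over 20 tumors and 76.7 CPM over 11 cultures), *Cd93* (220 and 37.0 CPM) and *Stab1* (182 and 0.198 CPM), and the summed level was 1070 ± 57.7 CPM (SD, n = 5) in parental control, 1270 ± 148 in parental GC, 994 ± 153 in GR KO control and 988 ± 88.9 in GR KO GC tumors. Melanoma cultures without endothelium had mean sums from 503 to 550 CPM, and the part of melanoma cells in the tumor sums was not tested. The part of macrophages and other host cells in *Stab1* and the rest of the list was not tested either.

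Of 42 angiogenic ligands and pathway genes 38 were tested. In parental tumors edgeR called 0 of them with GC, with 8 at an unadjusted p under 0.05 and 3 called by DESeq2 (*Adm*, *Angpt1* and *Notch4*). In GR KO tumors 4 rose with GC: the growth factor gene *Vegfa* (log2 fold change 1.70, SE 0.48, edgeR adjusted p = 0.0338), its co-receptor *Nrp1* (1.10, SE 0.29, adjusted p = 0.0262), the Notch target *Heyl* (1.71, SE 0.44, adjusted p = 0.0224) and the BMP target *Id3* (1.79, SE 0.39, adjusted p = 0.0105). The VEGF receptor ligand gene *Pgf* fell (-1.30, SE 0.29, edgeR adjusted p = 0.0101). Of all genes edgeR called 6.42% with GC in GR KO tumors and 2.25% between control tumors. Among control tumors the GR KO group had more *Pgf* (1.25, SE 0.28, edgeR adjusted p = 0.0288) and *Thbs2*, an inhibitor of angiogenesis (1.24, SE 0.22, adjusted p = 0.00610), and less *Nrp1* (-1.23, SE 0.29, adjusted p = 0.0296) and *Id3* (-1.62, SE 0.39, adjusted p = 0.0331). In cultures with DMSO *Thbs2* had the opposite sign, and edgeR called it lower in GR KO than in parental cells. *Nrp1* (549 CPM), *Vegfd* (130 CPM) and *Thbs2* (128 CPM) were the most abundant. The interaction test of edgeR called 0 of the 38 genes of this list, with 13 at an unadjusted p under 0.05 and 6 called by DESeq2. Of the 33 other endothelial genes it called 0, with 11 and 2 by these measures. Of all genes edgeR called 0.195%, 20.1% had an unadjusted p under 0.05 and DESeq2 called 5.13%.

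Marker lists of 9 other cell types were read beside the members, and their part in the results was not tested. Their counts stand beside the shares of all genes that edgeR called: 0.779% with GC in parental tumors, 6.42% with GC in GR KO tumors and 2.25% between control tumors. The 5 red cell genes summed to 93.1, 111, 69.3, 164 and 158 CPM in parental control, 79.6, 82.7, 64.0, 57.6 and 80.1 CPM in parental GC, 204, 250, 194, 256 and 153 CPM in GR KO control and 93.0, 35.8, 55.1, 72.2 and 49.3 CPM in GR KO GC tumors, with *Hbb-bs* the most abundant. With GC, 4 of the 5 fell in GR KO tumors, namely *Hba-a1* (log2 fold change -2.16, SE 0.38, edgeR adjusted p = 0.00269), *Hba-a2* (-2.63, SE 0.36, adjusted p = 4.03e-04), *Hbb-bs* (-1.16, SE 0.31, adjusted p = 0.0261) and *Hbb-bt* (-1.31, SE 0.38, adjusted p = 0.0398), and among control tumors *Hba-a2* was higher in the GR KO group (1.38, SE 0.35, adjusted p = 0.0369). In GR KO tumors the red cell sums and the defining endothelial sums, where *Kdr* alone was called, were thus both lower with GC. Whether they moved together was not tested. The 12 mural cell genes, known from the pericytes and smooth muscle around vessels, summed to 918, 627, 834, 624 and 892 CPM in parental control, 762, 617, 676, 857 and 867 CPM in parental GC, 1430, 1110, 1240, 1050 and 1390 CPM in GR KO control and 954, 1260, 1190, 1580 and 1270 CPM in GR KO GC tumors. Melanoma cultures had more, with mean sums from 3820 to 5060 CPM over the 4 culture groups, so this sum does not measure mural cells. *Acta2* was its most abundant gene (756 ± 252 CPM in 20 tumors, 4300 ± 867 CPM in 11 cultures), and it (0.87, SE 0.20, edgeR adjusted p = 0.0288) and *Tagln* (1.95, SE 0.47, adjusted p = 0.0331) were higher in GR KO control tumors, *Tagln* also in GR KO cultures (1.12, SE 0.24, adjusted p = 0.0134), while edgeR called 0 mural genes with GC in parental (4 at an unadjusted p under 0.05, 2 by DESeq2) and GR KO tumors (1 and 1).

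The 8 fibroblast genes summed to 6710, 7370, 6890, 7410 and 7030 CPM in parental control, 10700, 8350, 10700, 7740 and 10700 CPM in parental GC, 3610, 3920, 4500, 6540 and 5080 CPM in GR KO control and 9920, 8090, 11300, 7320 and 11100 CPM in GR KO GC tumors, led by *Col3a1*. These sums were higher in all GC-treated tumors than in the control tumors of their genotype. Without TMM factors they overlapped in both genotypes (7250 CPM in parental GC tumor 4 and 8120 in control tumor 4, 7130 in GR KO GC tumor 4 and 7160 in control tumor 4). *Vcam1* stayed separate. In GR KO tumors *Col1a1* (log2 fold change 0.64, SE 0.17, edgeR adjusted p = 0.0258), *Col1a2* (1.83, SE 0.30, adjusted p = 0.00191), *Col3a1* (1.03, SE 0.22, adjusted p = 0.00798) and *Pdgfra* (1.17, SE 0.32, adjusted p = 0.0320) rose with GC, and among control tumors *Col3a1* was lower in the GR KO group (1470 against 2940 CPM, adjusted p = 0.0252). The 9 leukocyte genes summed to 1200, 2200, 1120, 1100 and 1750 CPM in parental control, 1500, 1520, 1010, 1770 and 1630 CPM in parental GC, 1050, 1550, 1530, 1660 and 1680 CPM in GR KO control and 1320, 1570, 1650, 1340 and 1230 CPM in GR KO GC tumors, led by *Lyz2*. *S100a8* fell with GC in parental tumors (-3.96, SE 0.94, edgeR adjusted p = 0.0437), and *Cd79a* was at 0 in all but the parental control group.

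The 8 lymphatic vessel genes, 4 of which are members (*Lyve1*, *Prox1*, *Flt4* and *Mmrn1*), summed to 408, 500, 407, 401 and 411 CPM in parental control, 456, 679, 511, 624 and 465 CPM in parental GC, 510, 615, 450, 572 and 560 CPM in GR KO control and 481, 526, 525, 389 and 315 CPM in GR KO GC tumors. *Pdpn*, which fibroblasts and macrophages also make, led this sum, *Ccl21a* and *Mmrn1* were at 0, and edgeR called 0 of the genes with GC in parental (2 at an unadjusted p under 0.05, 0 by DESeq2) and GR KO tumors (3 and 0). Melanoma cultures with DMSO also held *Pdpn*, at a mean of 104 CPM in parental and 1.62 CPM in GR KO cells, a difference that edgeR called. The 9 platelet genes summed to 234, 322, 307, 228 and 328 CPM in parental control, 280, 206, 254, 328 and 322 CPM in parental GC, 158, 209, 223, 276 and 304 CPM in GR KO control and 188, 250, 241, 309 and 242 CPM in GR KO GC tumors. *Pf4* led them, *Gp9*, *Gp1ba* and *Gp6* were at 0, and *Itga2b* fell with GC in GR KO tumors (log2 fold change -1.57, SE 0.40, edgeR adjusted p = 0.0216).

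The 8 keratinocyte genes, led by *Krt14*, summed to 1970, 1860, 2120, 1980 and 4020 CPM in parental control, 2420, 2890, 2240, 2510 and 2790 CPM in parental GC, 4460, 4970, 4000, 2760 and 2930 CPM in GR KO control and 1600, 1880, 2260, 2490 and 2060 CPM in GR KO GC tumors. *Krt15* (log2 fold change 1.45, SE 0.28, edgeR adjusted p = 0.00859) and *Lor* (1.19, SE 0.24, adjusted p = 0.0149) rose with GC in parental tumors. In GR KO tumors *Krt1* (1.85, SE 0.32, edgeR adjusted p = 0.00234) and *Krt10* (2.13, SE 0.49, adjusted p = 0.0136) rose and *Krt14* (-1.42, SE 0.39, adjusted p = 0.0302) and *Dsp* (-1.18, SE 0.20, adjusted p = 0.00227) fell, and *Krt1* was lower in the GR KO control group than in parental controls (-1.21, SE 0.31, adjusted p = 0.0422). The 8 striated muscle genes, led by *Acta1*, summed to 494, 391, 432, 373 and 414 CPM in parental control, 639, 330, 344, 492 and 431 CPM in parental GC, 537, 477, 680, 586 and 340 CPM in GR KO control and 335, 418, 446, 304 and 304 CPM in GR KO GC tumors, and *Myh4* fell with GC in GR KO tumors (-1.33, SE 0.35, edgeR adjusted p = 0.0268). The 7 melanocyte lineage genes, led by *Mitf* and with *Tyr* at 0, summed to 50.0, 55.9, 38.4, 39.6 and 30.2 CPM in parental control, 45.4, 47.5, 47.9, 35.8 and 53.6 CPM in parental GC, 39.7, 34.4, 37.7, 25.7 and 28.0 CPM in GR KO control and 40.1, 39.5, 34.2, 53.8 and 26.6 CPM in GR KO GC tumors, and edgeR called 0 of them with GC in parental (1 at an unadjusted p under 0.05, 0 by DESeq2) and GR KO tumors (0 and 0). Skin and muscle markers were present in every tumor, and the part of neighbouring tissue in the levels of the members was not tested.

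**Figure D4:**
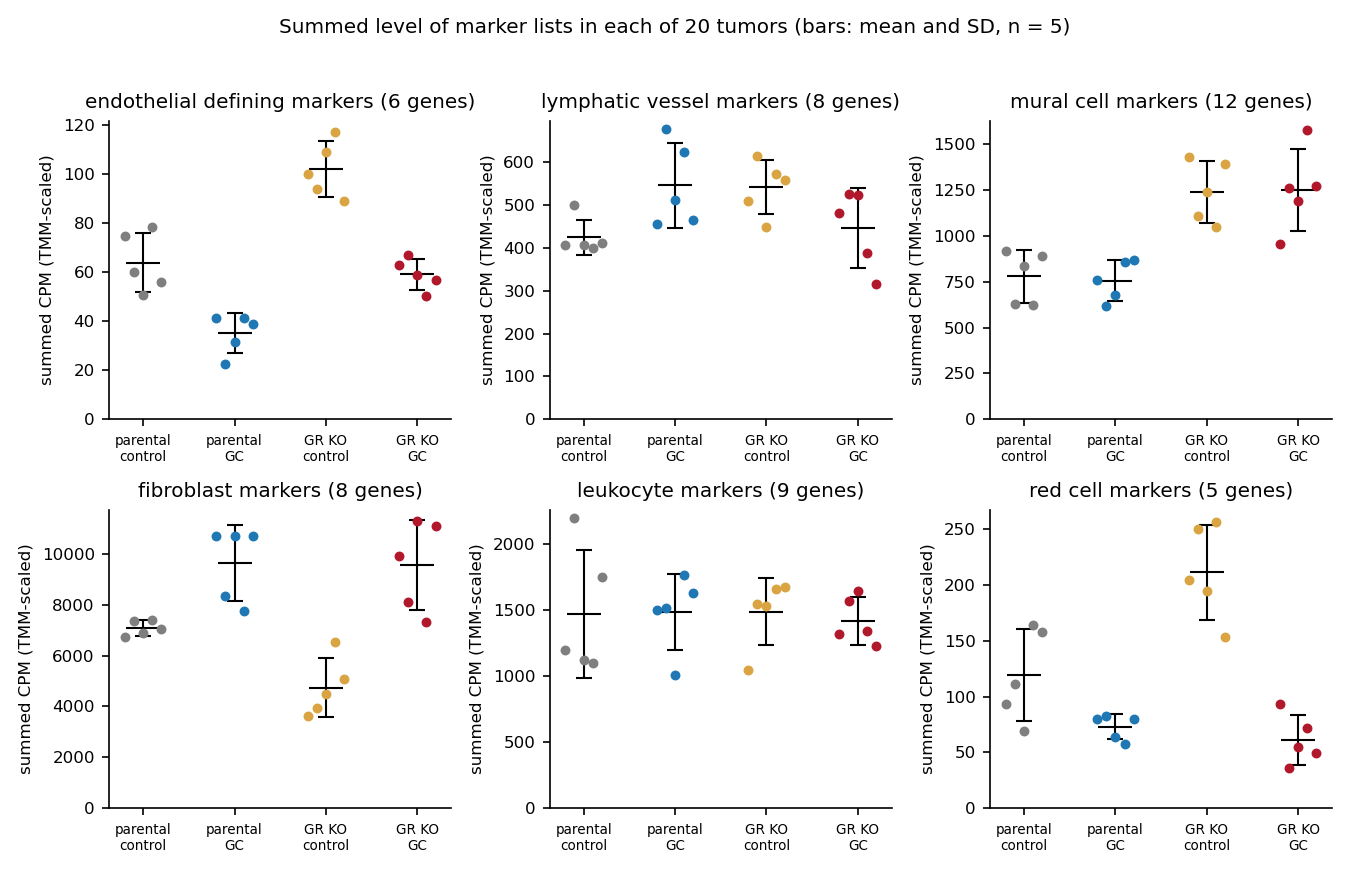
Summed CPM of the 6 defining endothelial genes and of 5 other marker lists in each of 20 tumors, with bars for mean and SD (n = 5 per group). Defining endothelial genes reach 88.9 to 117 CPM in GR KO control tumors and 22.7 to 41.3 CPM in parental GC tumors.

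The promoter table held 17 of the 36 members, with 22 promoters of 300 bases. The ETS core letters GGAA, searched on both strands, occurred in 21 of these 22 (95.5%) and in 31499 of all 32817 promoters, and the longer CAGGAA, which contains GGAA, in 11 (50.0%) against 30.6%. The glucocorticoid receptor letters AGAACA, on either strand, were in 3 (13.6%), those of *Egfl7*, *Erg* and *Tek*, against 19.0% of all promoters. The NF-kB letters GGGANTTCC, on either strand, were in 0, against 1.68%. A match describes letters, not a bound site, and other forms of these sites were not searched, so 0 matches does not mean that a site is absent. The promoters of *Egfl7* (chr2:26580833-26581132, plus strand), *Icam1* (chr9:21015690-21015989, plus strand) and *Kdr* (chr5:75978406-75978705, minus strand) are shown because these genes fell with GC in GR KO tumors and are in the table. *Egfl7* has 3 promoters there, of which the one nearest the 5′ end of the gene is shown, and its AGAACA match lies in another (chr2:26583615-26583914). They are RefSeq sequences on GRCm38.p6, read 5′ to 3′ on the strand of the gene, and capitals mark GGAA or its reverse TTCC, with 5 matches for *Egfl7*, 7 for *Icam1* and 5 for *Kdr*.
Egfl7: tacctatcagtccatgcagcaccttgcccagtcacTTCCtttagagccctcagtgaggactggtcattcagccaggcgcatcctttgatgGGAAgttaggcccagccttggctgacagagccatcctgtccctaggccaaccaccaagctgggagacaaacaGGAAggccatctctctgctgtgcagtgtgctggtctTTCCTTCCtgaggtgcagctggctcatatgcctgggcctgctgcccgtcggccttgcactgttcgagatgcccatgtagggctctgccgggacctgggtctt
Icam1: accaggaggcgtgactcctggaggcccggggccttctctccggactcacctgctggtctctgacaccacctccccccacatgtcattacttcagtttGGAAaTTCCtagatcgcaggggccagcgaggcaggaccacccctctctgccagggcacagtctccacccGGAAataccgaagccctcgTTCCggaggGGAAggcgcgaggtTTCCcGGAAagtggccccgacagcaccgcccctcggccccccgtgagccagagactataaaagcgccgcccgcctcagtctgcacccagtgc
Kdr: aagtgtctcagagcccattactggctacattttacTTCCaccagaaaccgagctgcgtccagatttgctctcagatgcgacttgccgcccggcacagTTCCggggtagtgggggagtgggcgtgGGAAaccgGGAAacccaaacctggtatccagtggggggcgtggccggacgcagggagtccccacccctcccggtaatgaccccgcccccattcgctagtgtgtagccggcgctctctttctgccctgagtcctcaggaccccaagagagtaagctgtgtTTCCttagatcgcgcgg

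The annotation places *Vcam1* (ENSMUSG00000027962) at chr3:116109949-116129688, *Plvap* (ENSMUSG00000034845) at chr8:71497765-71511752, *Kdr* (ENSMUSG00000062960) at chr5:75932827-75978458, *Mmrn2* (ENSMUSG00000041445) at chr14:34375465-34404287 and *Gpihbp1* (ENSMUSG00000022579) at chr15:75596628-75599481 of GRCm38. None of these genes shares an exon with another annotated gene. Exons of *Eng*, *Nos3*, *Ecscr*, *Prox1* and *Selp* overlap genes on the other strand (*Fpgs*, *Atg9b* and *Gm15587*, *1700066B19Rik*, *Prox1os*, *Gm16548* and *Gm16587*), so their counts are uncertain in the same way as those of *Egfl7*.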

How the data were processed

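RNA from 20 tumors and 11 cultures was sequenced as 3′ tags. The authors trimmed reads with Trim Galore 0.6.5, aligned them with STAR 2.6.1d to GRCm38 and deposited featureCounts counts for Ensembl release 75, without normalization; no strand setting was named, and defaults were stated for whatever was not specified. Genes were kept in tumors or in cultures if 3 or more libraries reached 0.5 CPM. Tumors and cultures were fitted separately, each with its 4 groups, by the quasi-likelihood method in edgeR 4.0.16 (R 4.3.3, limma 3.58.1) and TMM factors, and p-values were adjusted by Benjamini-Hochberg over all genes tested. DESeq2 1.42.0, other scaling, filters and fold minimums, a replicate block, fits of the compared groups alone and leaving out each sample were alternatives. The pipeline was tested on simulated data. Members and lists were chosen with earlier results of these data known. Values of every tumor are given for members called in a tumor comparison or among the 3 largest absolute changes of one. They are also given for *Pecam1*, *Cdh5*, *Kdr* and *Tek*, whereas the defining genes *Tie1* and *Esam* are given as group means. From other lists, the genes that edgeR called in a tumor comparison and the most abundant gene are named. For the other endothelial genes and the angiogenic list, the 3 most abundant are named. Genes of these lists called in cultures alone are not all named. Positions are from GENCODE M21.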

Additional observations from a re-analysis of the deposited data

Results flagged for a closer look

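In each group of 5 tumors, a tumor was listed when its gap to the next, divided by the range of the group, was above Dixon's critical value of 0.71. Of 136 groups (34 members in 4 tumor groups), 6 were listed (4.41%), and chance lists about 1 in 20 groups (5%). *Cldn5* was 3.03 CPM in parental control tumor 4, with the next tumor at 2.01. *Selp* was 1.62 CPM in the same tumor, with the next at 0.708. GR KO control tumor 4 had 7.30 CPM of *Angpt2* (next 3.21) and 18.0 CPM of *Lyve1* (next 4.72). GR KO GC tumor 2 had 6.57 CPM of *Robo4* (next 3.223). GR KO control tumor 1 had the lowest *Plvap* of its group at 78.0 CPM, with the next at 104. The causes were not tested.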

How the results depend on the processing

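Over 25 results, 198 values from alternative settings kept direction and side of the threshold in 178 cases, with 12 weaker and 8 stronger, and 244 values from fits without 1 sample did so in 192, with 48 weaker and 4 stronger. None reversed. A 2-fold minimum left 3 members called for GC in GR KO tumors (583 of all genes, 1022 in the main fit) and 2 for GR KO against parental control tumors (238 of all genes), as a stricter threshold must. DESeq2 called 1 member in the interaction and 7 between control tumors, beside 817 and 1004 of all 15919 genes (31 and 358 by edgeR). Fits of the compared groups alone called 2 between control tumors (165 of all genes) and 1 between GC-treated tumors (129), where no filter on low counts also called 1 (115 of 21241 genes). For GC in GR KO tumors they called 381 of all genes. The cause was not tested.

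Without 1 tumor, the count of members called ranged from 2 to 3 for GC in parental tumors, from 3 to 5 in GR KO tumors, from 0 to 1 for the interaction, from 1 to 6 between control tumors and from 1 to 2 between GC-treated tumors. In cultures it was 0 in every fit for GC in parental and in GR KO cells and 4 in every fit between genotypes. *Gpihbp1* was called without GR KO control tumor 4 in the interaction.

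With replicate number as a block the counts were 3, 4, 0, 4 and 2 in the tumor comparisons in this order, and 0, 0 and 4 in cultures. Of all genes it called 164, 994, 144, 363 and 160 in tumors, with 31 in the main fit of the interaction. Same-numbered tumors had a mean correlation of deviations of 0.0583 over 30 pairs, with a range from -0.543 to 0.415. Pairing was not used in the main fit, but this mean does not exclude structure shared by some same-numbered tumors. The block moved the median log2 fold change of all genes for GC in GR KO tumors from 0.05 to 0.11. Levels without TMM factors moved by over 1 SD in 2 of 217 cases. Depth limits members near 3 counts per library, and 5 tumors per group limit small differences.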
